A study of Mus musculus with 2 samples.

Results

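Autophagy is the pathway by which a cell encloses its own cytoplasm, organelles or microbes in a double membrane, the autophagosome, and delivers them to the lysosome. A kinase complex starts the process, a lipid kinase complex marks the membrane, and ubiquitin-like proteins of the Atg8 family (LC3 and GABARAP) are attached to the membrane lipid, where they hold the receptors that bring cargo. SNARE proteins then fuse the autophagosome with the lysosome. In macrophages part of the same machinery also attaches LC3 to phagosomes, a process named LC3-associated phagocytosis. Legumain, the product of Lgmn, is a protease of the lysosome, the compartment in which autophagy ends.

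The 35 autophagy genes described here were taken by name, and comprise initiation, lipid kinase, membrane, conjugation, receptor and fusion genes. All 35 were among the 15605 genes that at least 1 of the libraries listed, and all 35 were listed in both. RNA came from peritoneal macrophages of C57BL/6 mice aged 6 to 8 weeks, either wild type or lgmn-/-, and in both genotypes the cells had spent 4 days in co-culture with EO771, a breast carcinoma line of the mouse. There was 1 library per genotype, with 11885784 estimated counts for the wild type and 11740202 for the Lgmn knockout. How many mice gave cells to a library, whether a membrane separated the EO771 cells and which exons of Lgmn were deleted are not given in the sources used here. With 1 library per genotype there is no replicate check, so no p-value is given, and every difference is one between these libraries, not between genotypes at large.

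Ratios divide the scaled estimated counts of the knockout library by those of the wild type library, after TMM scaling, a correction for the overall composition of each library. The 95% interval of a ratio is exact (Clopper-Pearson) and covers counting error only. A log2 ratio was taken after adding 1 scaled count. A gene was tested for size if its higher library held 50 or more estimated counts, which held for 9498 genes and for all 35 autophagy genes. FPKM, the authors' measure of fragments per length of transcript and per mapped fragments of the library, compares levels between genes. FPKM is scaled by mapped fragments, so that its log2 ratios had a median of 0.23 over all genes tested, against -0.00061 for the TMM ratios. An FPKM that is slightly higher in the knockout library can therefore go with a ratio below 1.

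The libraries matched their genotype labels at the targeted gene. Lgmn fell 64.4-fold (58.6 to 71.1), from 23550 estimated counts in wild type to 426 in knockout. All 8 macrophage markers checked, such as Adgre1, Csf1r and Lyz2, were listed in both libraries, and their levels differed in both directions. Their summed FPKM of 19245 in wild type and 17360 in knockout rests mostly on Lyz2 and Cd68, with ratios of 0.8004 and 0.6144. With TMM scaling 4 of the 8 were above 1, with Mertk at 2.35, Csf1r at 1.95, Itgam at 1.53 and Adgre1 at 1.39. Markers of some other cells differed too. The 10 fibroblast and contractile markers, all listed in both, summed to 119.98 and 24.58 FPKM, and the 10 T and NK cell markers to 110.01 and 207.01, of which Gzma gave 91.2 and 164.3. The 5 neutrophil markers summed to 86.5 and 110.7, nearly all of it S100a8, whose ratio of 1.08 (0.942 to 1.25) has an interval that includes 1. Low sums were found for the 4 B cell markers, 1.40 and 2.51, and for the 3 of 4 dendritic cell markers that were listed, 0.69 and 2.57. Of 6 epithelial markers 5 were listed, with 5.24 and 1.17 FPKM, and the 4 mesothelial markers summed to 5.24 and 0.45. Both lists hold Krt19, which alone gave 4.65 and 0.37 FPKM, from 67 and 4 counts. Of the other epithelial markers, Epcam, Krt8 and Krt18 never exceeded 5 counts and Cdh1 had 11 and 21, while the mesothelial markers Msln and Upk3b were not listed in the knockout library. The part of these other cells in the autophagy gene ratios was not tested. In bulk RNA, fewer cells of a type and less RNA per cell cannot be told apart.

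Transcripts of the whole pathway were present in both libraries, over a wide range of levels. FPKM ran from 1.01 (Atg2a) to 1064 (Gabarap) in the wild type library, with a median of 8.88. In the knockout library it ran from 2.26 (Ulk1) to 819 (Gabarap), with a median of 9.49. The same 5 genes exceeded 100 FPKM in each library, namely Gabarap, Vamp8, Sqstm1, Map1lc3b and Gabarapl2, while 12 genes in the wild type and 10 in the knockout library were below 5 FPKM. The abundant genes encode Atg8 proteins, a cargo receptor and a fusion SNARE, whereas the kinases, scaffolds and lipid transfer proteins of the early steps were mostly low. The order of the genes by FPKM was nearly the same in both libraries, with a Spearman rho of 0.986 and a Pearson r of 0.990 on log2 FPKM across the 35 genes, which share the libraries and are not independent. Together the 35 genes took 0.370% of the estimated counts in wild type and 0.355% in the knockout library.

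**Figure D1:**
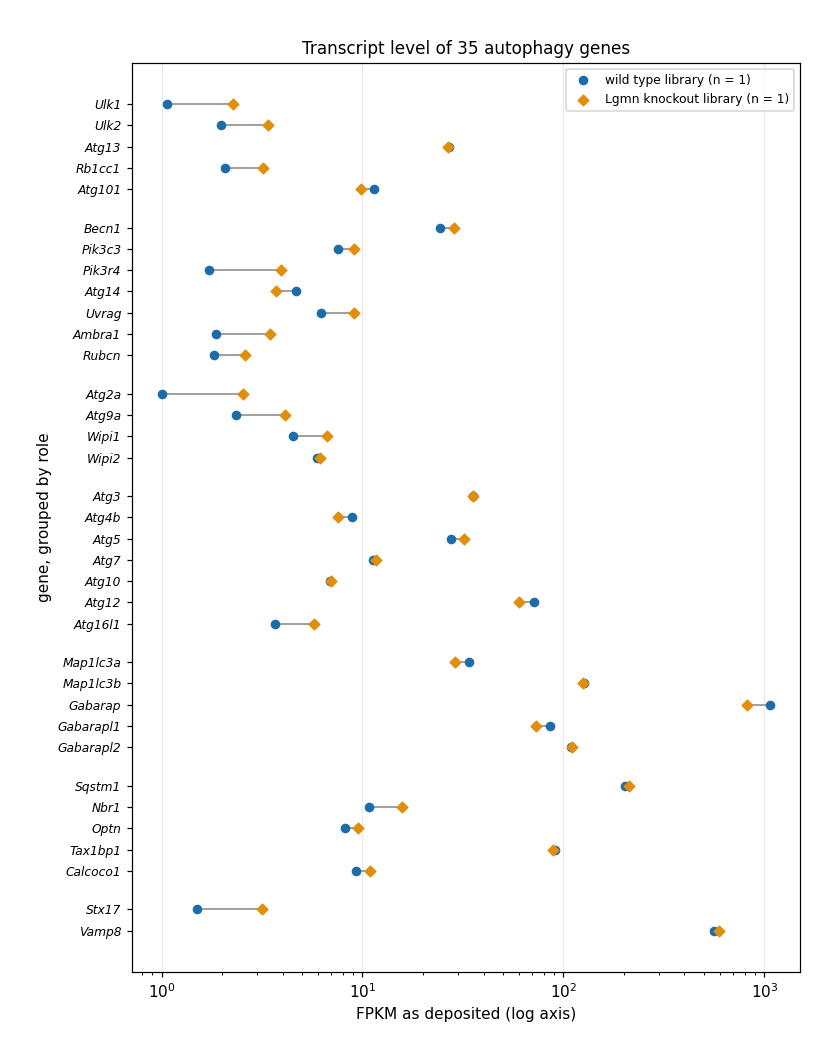
Deposited FPKM on a log axis for each of the 35 autophagy genes, grouped by role from initiation (top) to fusion (bottom), with 1 point for the wild type and 1 for the Lgmn knockout library. Gabarap is the most abundant at 1064 and 819 FPKM, and the points of most genes lie close together beside a range from about 1 to 1064 FPKM.

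Few of these genes differed between the libraries by a large factor. Atg2a, which encodes a lipid transfer protein that feeds the growing membrane, was 2.12-fold higher in the knockout library (1.62 to 2.80) and was the only 1 of 35 past 2-fold in that direction, while 6.05% of all genes tested were at least 2-fold higher. None of the 35 was at least 2-fold lower, beside 1.74% of all genes tested. At 1.5-fold, 5 of the 35 were higher (Atg2a, Pik3r4, Stx17, Ulk1 and Ambra1), beside 16.4% of all genes tested. Only Gabarap was at least 1.5-fold lower, beside 6.39%, and 29 genes lay between. The median log2 ratio of the 35 was -0.04, against -0.00061 for all genes tested. Above 0 were 14 genes and below 0 were 21, beside 4743 and 4755 of the 9498 genes tested. That sign depends on the scaling. With library totals, 25 were above 0 and 10 below, beside 6713 and 2785 of all 9498 genes tested. The median was then 0.20, beside 0.24 for all genes tested. At least 2-fold higher were then Ulk1, Pik3r4, Atg2a and Stx17, 4 of 35 beside 10.9% of all genes tested, and the same number, 4, with deposited FPKM, beside 9.85%.

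**Figure D2:**
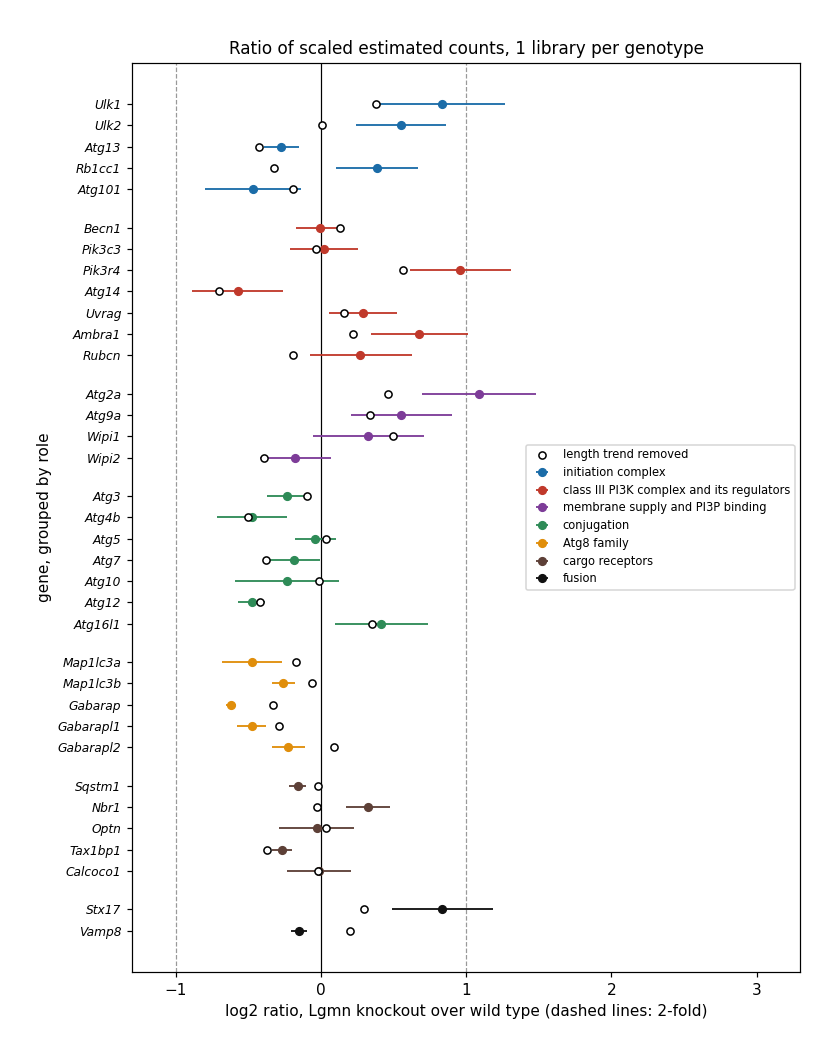
Log2 ratio of scaled estimated counts, knockout over wild type, for the 35 genes, coloured by role, with 95% intervals of counting error. Open circles give the log2 ratio after the trend with transcript length was removed, and dashed lines mark 2-fold. The filled circle of Atg2a alone lies beyond a dashed line, and its open circle lies at 0.46.

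The ratios followed transcript length, as they did over all genes tested. Across the 35 genes the log2 ratio and log2 transcript length had a Pearson r of 0.69 and a Spearman rho of 0.65, given as a description since the genes share both libraries. The rho over all 9498 genes was 0.61. Of the 18 genes with transcripts of 786 to 3098 bases, 16 had a log2 ratio below 0, with a median of -0.23. Of the 17 with transcripts of 3102 to 7046 bases, 12 were above 0, with a median of 0.32. All genes tested were also split into 10 groups by length. Below 0 were 833 of 952 genes in the shortest group, 542 of 951 in group 5 and 85 of 950 in the longest. The longer genes were also the less abundant ones, and the log2 ratio had a rho of -0.71 with FPKM across the 35, and of -0.53 over all genes tested. When the lowess trend of all genes tested was subtracted, the medians of the shorter and longer genes were -0.02 and -0.02. After that step none of the 35 was at least 2-fold higher (2.14% of all genes tested) or at least 2-fold lower (1.90%). None then passed 1.5-fold on the higher side, beside 7.74% of all genes tested, and only Atg14 did on the lower side, beside 6.33%. Length-adjusted values below are log2 ratios after this step.

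**Figure D3:**
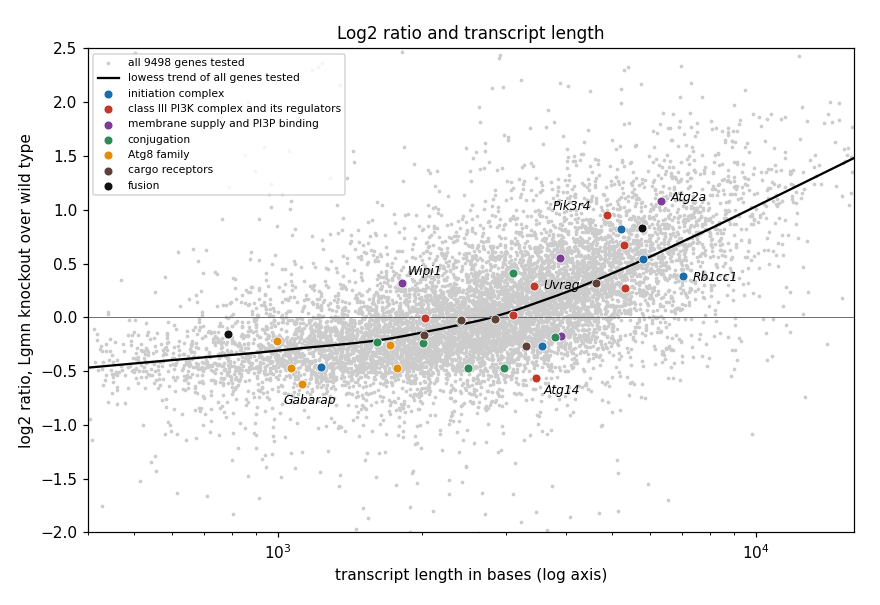
Log2 ratio, knockout over wild type, against transcript length on a log axis for all genes tested (grey), with their lowess trend (line) and the 35 autophagy genes coloured by role. The coloured points climb with the trend from Gabarap to Atg2a, and Atg14 and Uvrag, of nearly equal length, lie on opposite sides of it. The axes leave out 88 of the genes tested.

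In the initiation complex, the 3 genes with the longest transcripts had ratios above 1 and the other 2 had ratios below 1. Ulk1, a kinase that starts autophagy (chromosome 5, 110784489 to 110810120 in GRCm38), had 68 and 141 estimated counts in the wild type and knockout libraries, and FPKM of 1.07 and 2.26. Its ratio was 1.78 (1.32 to 2.41), or 0.82 on the log2 scale and 0.38 with length adjusted. Its paralog Ulk2 had 139 and 237 counts and a ratio of 1.46 (1.18 to 1.82), and its length-adjusted value was 0.01. The intervals of the kinases overlap. Rb1cc1, which encodes the large scaffold FIP200, had 178 and 271 counts. Its ratio of 1.31 (1.08 to 1.59) was below what other transcripts of its length showed, so its log2 ratio of 0.38 became -0.32 after adjustment. Atg13, the adaptor that joins the kinase to the scaffold, had the most transcript of the complex per length, with FPKM of 27.1 and 26.5. It had 1171 and 1131 counts and a ratio of 0.829 (0.763 to 0.900). Its transcript of 3573 bases falls in a length group where 604 of 949 genes were above 0. Its length-adjusted value was therefore lower than its log2 ratio, at -0.43 beside -0.27. Atg101, which stabilises Atg13, had 167 and 141 counts and a ratio of 0.724 (0.575 to 0.912). Of the 5 genes, 3 had log2 ratios above 0 with TMM scaling and with totals, and 2 after length adjustment. Of all 9498 genes tested, 4743, 6713 and 4642 were above 0 under these settings.

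The class III phosphatidylinositol 3-kinase complex, which makes the lipid PI3P on the membrane, held both the highest and the lowest length-adjusted values of the 35 genes. Its core members Becn1, a scaffold, and Pik3c3, the lipid kinase Vps34, were nearly level. Becn1 had 595 and 690 counts and a ratio of 0.995 (0.890 to 1.11). Exons of Cntd1 on the other strand overlap 43.9% of its annotated exon bases, the largest such share of the 35 genes. That share is of 7065 bases, beside a transcript length of 2031 in the deposited data. Its counts are therefore uncertain, and how far the overlap affects them was not tested. Pik3c3 had 283 and 335 counts and a ratio of 1.02 (0.864 to 1.19). Pik3r4, the regulatory subunit Vps15 (chromosome 9, 105642995 to 105687655), had 102 and 231 counts, FPKM of 1.72 and 3.95, and a ratio of 1.94 (1.53 to 2.48). Its length-adjusted value was 0.56. When the genes tested were split into 10 groups by length, its log2 ratio stood at percentile 89.5 of its group. That group holds 950 genes with transcripts of 4558 to 5920 bases. Ambra1, a regulator that binds Becn1, had 118 and 220 counts and a ratio of 1.60 (1.27 to 2.02), with a length-adjusted value of 0.22. Rubcn, an inhibitor of the kinase in autophagy that LC3-associated phagocytosis needs, had 118 and 166 counts and a ratio of 1.21 (0.947 to 1.54), an interval that includes 1.

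Atg14 and Uvrag take the same place in this complex, and a complex holds either the one or the other. Atg14 directs the kinase to sites where autophagosomes form, and Uvrag is the subunit of the complex that works on endosomes and late steps. Atg14 (chromosome 14, 47540893 to 47568434) had 195 counts in the wild type and 153 in the knockout library, FPKM of 4.65 and 3.70, and a ratio of 0.673 (0.541 to 0.836). Uvrag (chromosome 7, 98886742 to 99141167) had 260 and 371 counts, FPKM of 6.25 and 9.04, and a ratio of 1.22 (1.04 to 1.44). The intervals do not overlap. Their transcripts are 3466 and 3438 bases long, so the length trend is nearly equal for the pair, and the length-adjusted values were -0.70 and 0.16. Within their length group of 949 genes, Atg14 stood at percentile 3.69 and Uvrag at 66.0. Uvrag was 1.34 times as abundant as Atg14 per length in wild type and 2.44 times in the knockout library. The ratio of their counts was 1.82 times higher in the knockout library, with a 95% conditional interval of 1.38 to 2.39 for counting error. This pair was chosen after the values were seen, from 12 pairs computed. Over the 12, the change ran from 0.715 for Sqstm1 to Nbr1 to 1.91 (1.43 to 2.56) for Pik3r4 to Pik3c3. Atg16l1 to Atg12, at 1.85 (1.48 to 2.34), also changed more than this pair. Some intervals included 1, such as that of Ulk1 to Ulk2 (0.839 to 1.77). A change of this size is thus not particular to Atg14 and Uvrag. Of the exon bases annotated for Uvrag, 17.6% overlap a gene on the other strand, and 5.53% of those of Atg14 do.

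The sequences before the starts of these genes are shown because the intervals of the pair, nearly equal in transcript length, do not overlap. Uvrag lay nearer to the length trend, at 0.16, than Atg14, at -0.70. The sequences are from RefSeq (GRCm38.p6), cover the 250 bases before a RefSeq start site on the gene's own strand, minus for both genes, and lie at chr14:47568435-47568684 for Atg14 and chr7:99141145-99141394 for Uvrag. Capitals mark CpG dinucleotides, of which Atg14 has 11 and Uvrag 16, with GC contents of 57.2% and 61.6%.
Atg14: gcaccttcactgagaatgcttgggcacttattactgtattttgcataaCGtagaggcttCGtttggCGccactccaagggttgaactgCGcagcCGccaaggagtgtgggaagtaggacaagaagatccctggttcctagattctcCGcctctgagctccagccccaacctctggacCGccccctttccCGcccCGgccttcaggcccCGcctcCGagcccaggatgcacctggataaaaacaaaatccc
Uvrag: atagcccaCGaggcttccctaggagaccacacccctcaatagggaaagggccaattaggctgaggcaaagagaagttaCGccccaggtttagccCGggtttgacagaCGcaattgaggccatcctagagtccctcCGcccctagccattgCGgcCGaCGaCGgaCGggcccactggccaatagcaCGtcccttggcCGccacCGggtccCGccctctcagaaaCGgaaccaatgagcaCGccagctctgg

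The genes that supply and mark the membrane were among the least abundant. Log2 ratios were above 0 in 3 of 4 with TMM scaling, as after length adjustment, and in all 4 with library totals. Of all 9498 genes tested, 4743, 4642 and 6713 were above 0 under these settings. Atg2a (chromosome 19, 6241478 to 6262304) had 78 counts in the wild type and 193 in the knockout library, with FPKM of 1.01 and 2.54. Its transcript of 6340 bases is the longest of the 35 after Rb1cc1, and the log2 ratio, 1.08, came down to 0.46 with length adjusted. Atg9a, a membrane protein that scrambles lipids in vesicles feeding the autophagosome, had 111 and 190 counts and a ratio of 1.47 (1.16 to 1.87). Exons of other genes overlap 32.6% of its annotated exon bases. Wipi1 and Wipi2 both bind PI3P, and Wipi2 recruits the conjugation machinery. Wipi1 had 98 and 143 counts and a ratio of 1.25 (0.961 to 1.64), against 280 and 289 counts and 0.885 (0.749 to 1.05) for Wipi2. Neither interval excludes 1. After length adjustment they lay on opposite sides, at 0.50 and -0.39. Without length adjustment, the conditional interval for the change in the ratio of their counts was 1.03 to 1.94. Their transcripts are 1817 and 3913 bases long, and they too belong to the pairs computed.

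The conjugation genes were mostly level or slightly below. Of the 7, 6 had log2 ratios below 0 with TMM scaling, 2 with library totals and 5 after length adjustment, so their direction depends on the scaling. Beside these, 4755, 2785 and 4856 of all 9498 genes tested were below 0. Atg12, the ubiquitin-like protein that is joined to Atg5, was the most abundant, with FPKM of 71.0 and 60.3. It had 2132 and 1787 counts and a ratio of 0.719 (0.675 to 0.766), and it was below 0 under every scaling, at -0.24 with totals and -0.42 after length adjustment. Its partner Atg5, of similar transcript length, had 800 and 909 counts and a ratio of 0.975 (0.885 to 1.07). Atg4b, the protease that trims Atg8 proteins, had 318 and 267 counts, a ratio of 0.720 (0.610 to 0.850) and a length-adjusted value of -0.50. Atg16l1, which places the Atg12-Atg5 conjugate on the membrane, was the only 1 above 0 with TMM scaling, with 137 and 213 counts and a ratio of 1.33 (1.07 to 1.67). The E1-like enzyme Atg7 had 514 and 528 counts and a ratio of 0.881 (0.779 to 0.997). The E2-like enzymes Atg3 and Atg10 had ratios of 0.850 (0.772 to 0.936) and 0.851 (0.664 to 1.09), from 856 and 848 counts and from 133 and 132.

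All 5 genes of the Atg8 family had ratios below 1 with TMM scaling. Their transcripts are short, and in the length groups that hold them most genes tested were below 1 too, namely 833 of 952, 793 of 948 and 713 of 951. With library totals, deposited FPKM or length adjustment 4 of the 5 were below 1, Gabarapl2 being the exception each time. Map1lc3b was then nearly level, at log2 ratios of -0.02, -0.02 and -0.06. Gabarap (chromosome 11, 69991370 to 69994949), whose product acts late in the closure and fusion of autophagosomes and also in receptor transport, had 14121 counts in the wild type and 10721 in the knockout library. Its FPKM of 1064 and 819 put it at percentile 99.0 and 98.9 of all genes listed in the respective library. The ratio was 0.651 (0.635 to 0.668), with log2 ratios of -0.62 with TMM scaling, -0.38 with totals and -0.33 after length adjustment. In its length group of 948 genes, it stood at percentile 8.65. Gabarapl1 had 1814 and 1521 counts and a ratio of 0.719 (0.671 to 0.770), and exons of a gene on the other strand overlap 28.3% of its exon bases. Gabarapl2 had 1282 and 1280 counts and a ratio of 0.857 (0.792 to 0.926), with a length-adjusted value of 0.09.

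The LC3 members were lower in abundance than Gabarap. Map1lc3b, the LC3 form commonly used to follow autophagosomes, had 2585 and 2518 counts, FPKM of 126.2 and 124.6 and a ratio of 0.836 (0.791 to 0.883). Map1lc3a had 425 and 357 counts and a ratio of 0.721 (0.624 to 0.831), and its length-adjusted value of -0.17 compares with -0.06 for Map1lc3b. Gabarap made up 75.0% of the summed FPKM of the family in wild type and 70.9% in the knockout library. Map1lc3b made up 8.89% and 10.8%, Gabarapl2 7.70% and 9.57%, Gabarapl1 6.02% and 6.28%, and Map1lc3a 2.39% and 2.496%. The family as a whole summed to 1418 and 1156 FPKM. Within the family, which needs no scaling between libraries, the ratio of Gabarapl2 to Gabarap counts was 1.32 times higher in the knockout library (1.21 to 1.43), and that of Map1lc3b to Gabarap 1.28 times (1.21 to 1.36). These changes are without length adjustment, and the transcripts of Gabarapl2, Map1lc3b and Gabarap are 996, 1712 and 1122 bases long. Both pairs belong to the 12 computed.

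The cargo receptors differed little. Sqstm1, which encodes the ubiquitin receptor p62, was the most abundant, with 4884 and 5093 counts, FPKM of 201 and 213 and a ratio of 0.895 (0.860 to 0.931), and its length-adjusted value was -0.02. It made up 62.8% of the summed FPKM of the 5 receptors in wild type and 63.0% in the knockout library. Tax1bp1, a ubiquitin receptor that also restrains inflammatory signalling, had 3629 and 3513 counts and a ratio of 0.830 (0.793 to 0.870), and -0.37 after length adjustment. Nbr1, a receptor that works with p62, had 605 and 882 counts and a ratio of 1.25 (1.13 to 1.39). Its transcript is 4636 bases long, and length adjustment took the log2 ratio from 0.32 to -0.02. Optn, a receptor for damaged mitochondria and bacteria, had 238 and 272 counts and a ratio of 0.980 (0.821 to 1.17), and Calcoco1, a receptor for endoplasmic reticulum, had 318 and 367 counts and a ratio of 0.990 (0.850 to 1.15). Exons of the opposite strand gene Mrnip overlap 17.3% of the exon bases of Sqstm1.

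The fusion SNAREs stood far apart in level. Vamp8, the lysosomal SNARE, had 5122 and 5374 counts and FPKM of 559 and 595, with a ratio of 0.900 (0.866 to 0.935). Stx17, the SNARE of the autophagosome (chromosome 4, 48124906 to 48186507), had 105 and 218 counts and FPKM of 1.5 and 3.15, with a ratio of 1.78 (1.40 to 2.27). The transcripts measure 786 and 5777 bases, and after length adjustment the values were closer, at 0.20 for Vamp8 and 0.30 for Stx17.

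Most other genes of the pathway lay within 2-fold, as did most genes tested. Of 73 further genes, listed in the same way by name, 72 had counts and 70 were tested. At least 2-fold higher were 3, beside 6.05% of all genes tested, and 2 were at least 2-fold lower, beside 1.74%. Between lay 65 of the 70, beside 8758 of all 9498 genes tested. The median log2 ratio of the 70 was -0.01. After length adjustment 0 were higher (2.14% of all genes tested) and 2 lower (1.90%). The lowest was Stbd1, a receptor that binds glycogen, which had 53 and 8 counts and was 7.72-fold lower (3.65 to 18.8), with a length-adjusted value of -2.65. Wdfy3, an adaptor for protein aggregates with a transcript of 14277 bases, was 4.06-fold higher (2.92 to 5.75), with a length-adjusted value of 0.63. The next highest of the 16 genes of selective autophagy was Tbk1, a kinase that phosphorylates receptors, at a log2 ratio of 0.23.

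Tested in the remaining lists were 15 of 17 paralogs and other core genes, all 15 fusion and tethering genes, 18 of 19 upstream regulators and all 6 genes of the phagocyte oxidase. Among fusion and tethering genes, Epg5, a tether of autophagosomes to lysosomes, was 2.29-fold higher (1.65 to 3.22), and 0.18 on the log2 scale with length adjusted. Vps33a had 0.62, Vti1b -0.43 and Stx8 -0.33, all log2 ratios. Tsc2, an inhibitor of the mTORC1 kinase, was 2.17-fold higher (1.67 to 2.86), and 0.52 on the log2 scale after adjustment. The other upstream regulators at the ends of their list were Deptor at a log2 ratio of 0.92, Rheb at -0.48 and Prkab1 at -0.15. Deptor, with a transcript of 8549 bases and 39 and 87 counts, came down to 0.04 with length adjusted. Prkab1 was above 0 with totals. Among the core genes, Tecpr1 and Bcl2 lay at log2 ratios of 0.997 and 0.999, just short of 2-fold after the added count, and Sh3glb1 and Atg16l2 at -0.42 and -0.40. Tecpr1 kept 0.73 after length adjustment and Bcl2 0.40. Of the oxidase genes that LC3-associated phagocytosis uses, Cybb, the catalytic subunit, had 7852 and 18231 counts and a ratio of 1.99 (1.94 to 2.05), with 0.63 after adjustment. Ncf1 had a log2 ratio of 0.22, Ncf4 one of -0.16 and Rac2 one of -0.39.

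**Figure D4:**
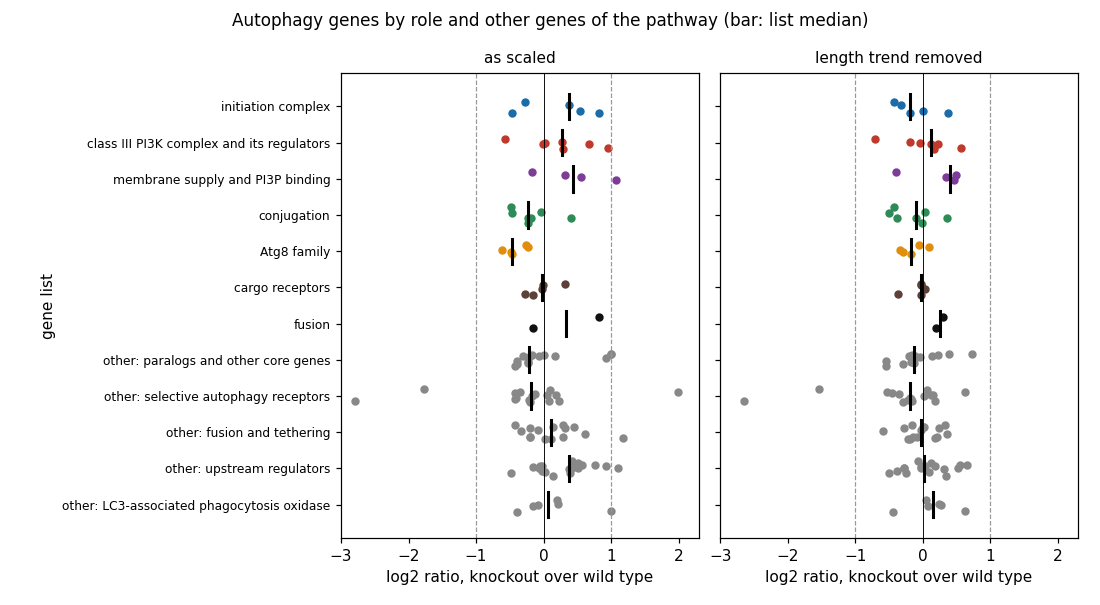
Log2 ratios of the 35 autophagy genes by role (coloured) and of the 70 other pathway genes tested (grey), as scaled (left) and with the length trend removed (right), with black bars at list medians and dashed lines at 2-fold. On the left the medians run from -0.47 for the Atg8 family to 0.44 for the membrane genes, and on the right the lowest point is Stbd1 at -2.65.

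The E-box CACGTG, the core of the element bound by the autophagy and lysosome regulator TFEB, was searched in the RefSeq promoters, windows of 250 bases before to 50 after a start site. Being its own reverse complement, it covers both strands. Promoters of 29 of the 35 genes were matched, 32 windows in all, and 5 of these held the motif, or 15.6%, beside 10.6% of the promoters of genes tested and 7.15% of all promoters. The longer form TCACGTG, searched on both strands and overlapping the first, was in 12.5% of the 32 windows, 6.56% and 3.77%. The matches are shown because their genes had ratios on both sides of 1, from 0.67 for Atg14 to 1.21 for Rubcn. The windows around each match are printed with 12 bases on either side and the motif in capitals, on the strand of the gene. They lie at chr6:114670952-114670981 (plus strand, Atg7), chr10:44268313-44268342 (plus strand, Atg5), chr14:47568418-47568447 (minus strand, Atg14), chr16:32868437-32868466 (minus strand, Rubcn), and chr16:45158723-45158752 and chr16:45158746-45158775 (plus strand, Atg3). The windows of Atg7 and Rubcn belong to start sites inside the genes, which span 114643127 to 114860604 and 32821702 to 32877729. Use of these internal starts in the cells was not tested.
Atg7: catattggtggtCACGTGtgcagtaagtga
Atg5: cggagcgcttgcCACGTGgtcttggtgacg
Atg14: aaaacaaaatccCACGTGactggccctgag
Rubcn: cgcctagcacatCACGTGtacccaggttag
Atg3, first match: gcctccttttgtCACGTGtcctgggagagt
Atg3, second match: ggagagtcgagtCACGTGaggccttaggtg

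The ratios of the genes with a match were 0.88 for Atg7, 0.97 for Atg5, 0.67 for Atg14, 1.21 for Rubcn and 0.85 for Atg3. In the same order, their length-adjusted values were -0.38, 0.03, -0.70, -0.19 and -0.09. Tfeb itself had 220 and 260 counts and a ratio of 1.01 (0.84 to 1.22), and its relative Tfe3 433 and 654 counts and 1.30 (1.15 to 1.47). A match describes letters in a window and is not a binding site measured here.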

How the data were processed

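RNA of 1 wild type and 1 Lgmn knockout culture was sequenced on a BGISEQ-500 instrument, per the labels' protocols, and the genotype label gave each sample its group. The authors deposited estimated counts, not scaled between libraries, and FPKM, scaled to transcript length and mapped fragments, per the file headers, together with transcript lengths in bases. The submitters' processing notes name HISAT2, Bowtie2, RSEM and mm10 but give neither role nor version. How strand was handled is not stated in them, so reads of overlapping genes may be shared. Exons of another gene (GENCODE vM21, GRCm38) overlap those of 11 of the 35 genes, and over 10% of the exon bases in 5. The shares are of all exon bases annotated for a gene, which can exceed the transcript length used for its counts. Reads shared by near-identical copies are split by RSEM's model.

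A table of RefSeq genes on GRCm38.p6 (mm10) gave symbols and positions for 15561 identifiers. Estimated counts were rounded and scaled by TMM (edgeR 4.0.16, R 4.3.3), whose factors were 0.921 and 1.09 for the wild type and knockout libraries. Intervals are 95% Clopper-Pearson intervals of the knockout share. They cover counting error only, and hold no variation between mice, cultures or preparations, since there was 1 library per genotype. Without molecular identifiers reads of 1 molecule can be counted repeatedly, so the intervals may be too narrow even for counting error. Length adjustment subtracted a lowess trend (span 0.3) on log2 length over all genes tested. Alternatives were scaling by library totals or with DESeq2 1.42.0, deposited FPKM with 0.1 added, pseudocounts of 0.5 and 5, a count minimum of 10, of 200 or none, medians of 10 length groups, and a 1.5-fold threshold. The genes and lists were chosen with earlier results of these data known. Named are all 35 genes, Lgmn and the 2 highest and 2 lowest of each further list, besides Tfeb and Tfe3 and the marker genes, and 1 gene that the rule takes is not reported here. On simulated data with 200 genes changed 3-fold or 4-fold, all 100 raised and 100 lowered genes passed 2-fold, as did 2 of 9102 unchanged genes. Simulated counts varied by random sampling alone, and their ratios were not tied to transcript length. The changes were set beyond the threshold, so the outcome checks the calculation. It gives no rate of false calls for the real libraries. There, 309 of 950 genes in the longest of 10 length groups were at least 2-fold higher. Calculations used Python 3.11.15, scipy 1.17.1 and statsmodels 0.14.6.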

Additional observations from a re-analysis of the deposited data

How the results depend on the processing

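The number of autophagy genes at least 2-fold higher in the knockout library, 1 of 35, was 4 with library totals and 4 with deposited FPKM, when 10.9% and 9.85% of all genes tested passed. It was 0 with the length trend removed, 0 with the median of each of 10 length groups removed and 0 with a minimum of 200 counts, which left 27 of the 35 genes and not Atg2a. A threshold of 1.5-fold gave 5 higher and 1 lower. The number at least 2-fold lower was 0 under every other alternative run. The median log2 ratio of -0.04 became 0.20 with library totals and 0.20 with FPKM, as the median of all genes tested moved to 0.24 and 0.23. Among single genes, 11 of 35 changed sign with totals, 11 with FPKM and 9 with either length adjustment, and none with DESeq2 size factors or another pseudocount. Depth limits the low genes most, since Ulk1 with 68 counts in the wild type library has an interval of 1.32 to 2.41. No paired analysis was possible because there was 1 library per genotype, and for the same reason no library could be left out.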
